A study of Rattus norvegicus with 6 samples.

Results

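Lcn2 and C3 are secreted products of the acute-phase response, and both were chosen by gene ID from the count table, as 2 of its 27108 genes. The choice was made with their difference between the study's groups known. Lcn2 was taken as ENSRNOG00000013973 and complement C3 as ENSRNOG00000046834. These symbols came with the rule that chose the genes, since the table carries IDs only.

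The cells were neonatal rat ventricular cardiac fibroblasts, which lay down and remodel the collagen matrix of the heart. The 3 UT libraries came from cells on glass treated with fibronectin alone. The 3 TTR libraries came from cells on glass treated with fibronectin and transthyretin (TTR) fibrils, the aggregates that accumulate in the heart in transthyretin amyloidosis. All cells spent 48 h on their substrate before RNA extraction, and by the labels the substrates differ in the fibrils alone. The labels name neither the source of the fibrils nor whether replicates were separate cell isolations, so errors given here measure the spread between these libraries, which may be technical. The fibroblast identity was not checked against marker genes, because no marker symbol could be paired with an ID. In such bulk libraries, a difference in the number of cells expressing a gene and a difference in RNA per cell cannot be told apart.

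Lcn2 encodes lipocalin 2, a secreted carrier that binds bacterial siderophores and so withholds iron from bacteria. It is abundant in neutrophil granules and is also made by epithelial and stromal cells during inflammation. C3 encodes the central protein of the complement cascade, on which the classical, lectin and alternative routes converge. Its cleavage gives C3b, which tags surfaces for uptake, and C3a, a small inflammatory mediator. The liver makes most circulating C3, and fibroblasts and macrophages also make it locally. Transcription of both genes is known to respond to inflammatory cytokines through factors of the NF-kB and C/EBP families.

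Because the 2 genes share this type of control, the sequences upstream of their RefSeq starts are shown, with matches to motifs of these 2 families in capitals. The Lcn2 stretch is 179 bases, chr3:36081852-36082030 on the minus strand of build GRCr8, and spans positions -250 to -72 from the start. It stops where the annotated span of the gene begins. The C3 stretch is 250 bases, chr9:2201340-2201589 on the minus strand of GRCr8, and spans -250 to -1. The counts were made on another build, rn6 per the submitters' processing notes. Both are written 5′ to 3′ on the strand of the gene.
Lcn2: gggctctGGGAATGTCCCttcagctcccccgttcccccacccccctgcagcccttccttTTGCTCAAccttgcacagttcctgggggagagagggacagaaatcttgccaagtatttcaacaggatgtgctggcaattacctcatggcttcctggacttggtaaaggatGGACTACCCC
C3: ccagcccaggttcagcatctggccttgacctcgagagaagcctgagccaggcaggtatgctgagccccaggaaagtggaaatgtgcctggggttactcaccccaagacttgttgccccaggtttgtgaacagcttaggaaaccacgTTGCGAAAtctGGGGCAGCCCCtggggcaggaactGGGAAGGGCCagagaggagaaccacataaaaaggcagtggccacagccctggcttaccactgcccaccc

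A loose NF-kB motif, GGGNNNNNCC, and a C/EBP motif, TTGCNNAA, were searched on both strands of all 250 bases upstream of each start, including the 71 bases next to the Lcn2 start that are not printed. The motifs were picked after the sequences had been seen. In Lcn2 the C/EBP motif matched once, at -191 to -184. The NF-kB motif matched there at -243 to -234, with an overlapping match on the other strand at -242 to -233, and again on the other strand at -81 to -72. In C3 the C/EBP motif matched at -104 to -97. The NF-kB motif overlapped itself in C3 at -93 to -84 and -92 to -83, on both strands, and matched once more at -69 to -60. The loose NF-kB motif is common, with a match in 42.3% of 33469 RefSeq windows of the same length, and the C/EBP motif matched in 9.22%. Both motifs were present in 3.00% of windows. A STAT motif, TTCNNNGAA, matched in neither gene and in 7.67% of windows. These matches describe letters in the window and say nothing about binding in the cells.

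**Figure D1:**
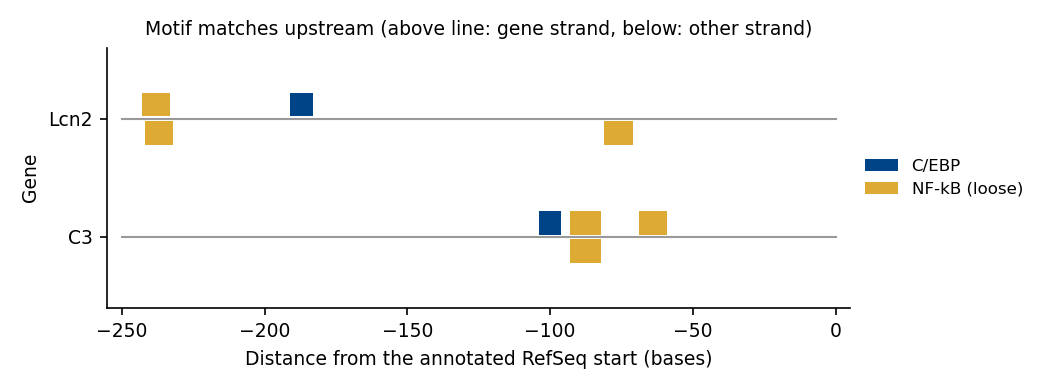
Positions of motif matches in the 250 bases upstream of the RefSeq start of Lcn2 and C3, with distance from the start in bases on the x axis and 1 line per gene. Yellow boxes are matches to the loose NF-kB motif and blue boxes to the C/EBP motif, with boxes above the line on the strand of the gene and boxes below it on the other strand. The C/EBP match lies at -191 to -184 in Lcn2 and at -104 to -97 in C3.

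Total counts per library ran from 6574199 to 11774729, the largest being TTR replicate 1. Levels are given in CPM, counts per 1000000 of the TMM-adjusted library size. Of the 27108 genes, 12049 passed the filter on low counts, Lcn2 and C3 among them. The median gene in this set stood at 28.6 CPM over the 6 libraries. Lcn2 was more abundant than 21.3% of the tested genes by its mean over all libraries, and C3 than 17.8%, on a scale that is not corrected for transcript length. Both genes therefore rest on few reads, mainly in the UT libraries. Over all tested genes, each library departed from its group mean together with 1 library of the other group. At least 1 such partner is forced, because deviations from a group mean cancel out within the group. The size of the correlation is therefore what carries information. The correlations were 0.58 for UT replicate 3 and TTR replicate 1, 0.52 for UT replicate 1 and TTR replicate 3, and 0.44 for UT replicate 2 and TTR replicate 2. The labels name nothing that these pairs share. The folds and SEs below treat the libraries as independent, and the part of this structure in them was not tested.

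Lcn2 was scarce in cells on fibronectin alone and higher in each culture on TTR fibrils. Its counts were 11, 16 and 8 in UT replicates 1, 2 and 3, against 101, 146 and 64 in the TTR replicates. In CPM, Lcn2 stood at 1.498, 2.32 and 1.18 in the UT libraries and at 8.70, 20.01 and 9.59 in the TTR libraries. The groups did not overlap, and the lowest TTR library lay 3.75-fold above the highest UT library. TTR replicate 2 stood apart from the other two TTR libraries, its 95% Poisson interval of 16.9 to 23.5 CPM lying above those of TTR replicate 1 (7.09 to 10.6) and TTR replicate 3 (7.39 to 12.2). The intervals of the UT libraries overlapped and reached from 0.511 CPM at the lowest bound to 3.77 CPM at the highest. These intervals cover counting error only.

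The group means of Lcn2 were 1.67 ± 0.588 CPM in UT and 12.8 ± 6.29 CPM in TTR libraries (SD, n = 3), with a ratio of 7.65. In the edgeR model across all tested genes the log2 fold of TTR over UT was 2.92 (SE 0.42). Counting error amounted to 69.2% of the variance of Lcn2 between UT libraries and to 4.16% of that between TTR libraries. By these estimates the spread of Lcn2 on UT was mostly of the size that its few reads would give, and the spread on TTR was not. Each variance rests on 3 libraries, so the shares are rough. Without TTR replicate 2 the log2 fold of Lcn2 was 2.44.

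C3 was scarce in UT cultures, down to a single read in 1 library, and higher in each TTR culture. Its counts were 5, 13 and 1 in UT replicates 1, 2 and 3, and 88, 83 and 81 in the TTR replicates. In CPM, C3 stood at 0.681, 1.89 and 0.148 in the UT libraries and at 7.58, 11.4 and 12.1 in the TTR libraries. The groups did not overlap here either, with the lowest TTR library 4.02-fold above the highest UT library. UT replicate 3 held a single read of C3, and its 95% Poisson interval ran from 0.00375 to 0.825 CPM. That interval lay below the one of UT replicate 2, 1.00 to 3.23 CPM. The intervals of UT replicate 1 (0.221 to 1.59 CPM) overlapped both. Among the TTR libraries, the interval of replicate 1 (6.08 to 9.34 CPM) lay below that of replicate 3 (9.64 to 15.1 CPM).

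The group means of C3 were 0.905 ± 0.891 CPM in UT and 10.4 ± 2.44 CPM in TTR libraries (SD, n = 3), with a ratio of 11.5. The log2 fold of TTR over UT was 3.48 (SE 0.52) in the same edgeR model. Counting error amounted to 16.3% of the variance of C3 on UT and 22.6% on TTR. By these estimates the spread in both groups was larger than counting alone would give. The shares are rough, since each variance rests on 3 libraries. The size of the C3 fold depended on UT replicate 2, which held 13 of the 19 UT reads. Without that library the log2 fold was 4.55, and without UT replicate 3, which held 1 read, it was 3.00.

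**Figure D2:**
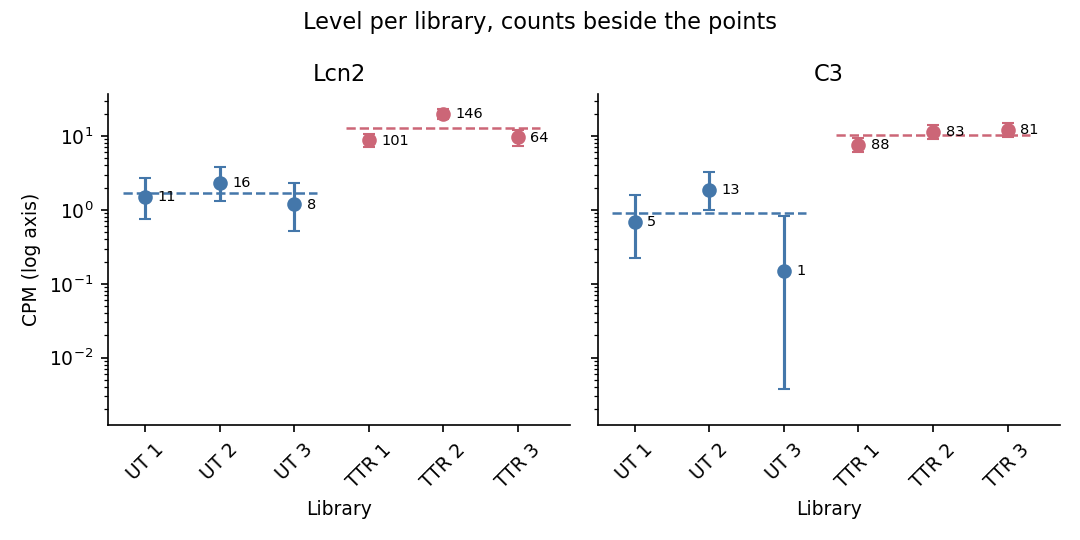
Levels of Lcn2 and C3 in each library, in CPM on a log axis, with the raw count beside each point. Bars are 95% Poisson intervals for counting error, dashed lines are group means, and UT libraries are blue and TTR libraries red. All TTR points lie above all UT points for both genes, the lowest TTR point being 3.75-fold (Lcn2) and 4.02-fold (C3) above the highest UT point.

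No test is offered for these differences, because the genes were selected with the contrast known. Of the 2 genes, 0 passed an adjusted p of 0.05 by edgeR's quasi-likelihood test with Benjamini-Hochberg adjustment, where 1 of 12049 genes (0.0083%) was called higher on TTR. Both had an unadjusted edgeR p under 0.05, as did 1.51% of tested genes in the same direction. DESeq2 called both, among 35 genes called higher of 13932 with a defined adjusted p (0.251%). In 3.75% of tested genes all TTR libraries lay above all UT libraries, as they did for both genes. Without a filter on low counts edgeR also called both, where 36 of 18627 genes were called. Limma-voom called 0 of the 2, where 1 of 12049 was called. The calls for Lcn2 and C3 thus differed with the tool and with the filter, and nothing is read from them.

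Among the 12049 tested genes, C3 had the ninth and Lcn2 the twelfth highest log2 fold, with 8 and 11 genes above them. The median log2 fold over all tested genes was -0.0038, and the median size of a log2 fold was 0.10 in either direction. Of the 1364 genes whose mean log2 CPM lay within 0.5 of that of Lcn2, 2 had a higher log2 fold than Lcn2. Of the 1253 genes within 0.5 of C3, 2 had a higher log2 fold than C3. The clear gap between groups was also uncommon. For 10 tested genes, Lcn2 included, the lowest TTR library was at least 3.75-fold above the highest UT library, and for 9, C3 included, at least 4.02-fold. These ranks describe where 2 genes chosen for their difference lie and are no evidence for it.

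**Figure D3:**
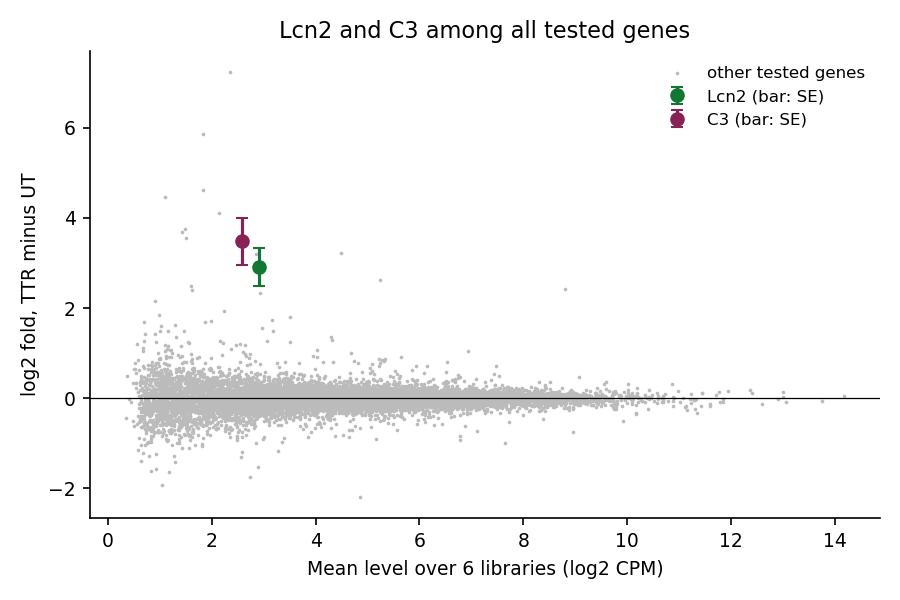
Log2 fold of TTR over UT against the mean level in log2 CPM over 6 libraries for the 12049 tested genes (grey points), with Lcn2 in green and C3 in purple and their SE as bars. Lcn2 at 2.92 and C3 at 3.48 lie far above the band of grey points at the same level, with 11 and 8 tested genes higher.

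The 2 genes had the same order among the UT libraries and different orders among the TTR libraries. UT replicate 2 was the highest and UT replicate 3 the lowest UT library for both Lcn2 and C3. Among the TTR libraries, replicate 2 was the highest for Lcn2 and replicate 3 for C3, while replicate 1, the most deeply sequenced, was the lowest for both. The Poisson intervals of C3 in TTR replicates 2 (9.06 to 14.1 CPM) and 3 (9.64 to 15.1 CPM) overlapped, so their order is within counting error. Those of Lcn2 overlapped among the UT libraries and between TTR replicates 1 and 3. Without TTR replicate 1 the log2 fold was 3.14 for Lcn2 and 3.68 for C3.

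The ratio of C3 reads to Lcn2 reads within a library does not depend on scaling between libraries. This ratio was 0.455, 0.813 and 0.125 in UT replicates 1, 2 and 3, and 0.871, 0.568 and 1.27 in the TTR replicates. The value of 0.125 rests on 1 C3 read and 8 Lcn2 reads and has a 95% exact binomial interval of 0.00282 to 0.932. The ratios of the groups overlapped, since UT replicate 2 exceeded TTR replicate 2. On the log2 scale the mean ratio was -1.48 ± 1.38 on UT and -0.22 ± 0.58 on TTR (SD, n = 3). The larger fold of C3 than of Lcn2 was therefore not distinguishable from the spread between these libraries. Between the 2 TTR replicates with the most different ratios, 2 and 3, the intervals did not overlap, at 0.429 to 0.749 and 0.901 to 1.79.

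Across all 6 libraries, Lcn2 and C3 had a Pearson correlation of 0.953 in log2 CPM. Such a value over 2 separated groups is set mainly by the difference between them. By this measure C3 was the thirty-sixth most similar gene to Lcn2, and Lcn2 the twentieth most similar to C3, among the tested genes. A correlation of at least 0.95 was found with 37 genes for Lcn2 and 21 for C3. The gene most similar to Lcn2 was ENSRNOG00000010370, with r = 0.996 over the 6 libraries. Its levels were 53.7, 57.6 and 47.7 CPM in the UT libraries and 77.8, 99.9 and 83.8 CPM in the TTR libraries. ENSRNOG00000010370 thus shared with Lcn2 the highest and the lowest library of each group, at a much smaller log2 fold of 0.72. The gene most similar to C3 was ENSRNOG00000005012, with r = 0.984 and a log2 fold of 0.18. It stood at 60.2, 62.8 and 58.8 CPM in the UT libraries and at 67.5, 70.6 and 68.5 CPM in the TTR libraries. It followed the order of C3 among the UT libraries, while its highest TTR library was replicate 2, and that of C3 was replicate 3. The correlation compares the shape of a profile and not its size, and the symbols of these 2 genes are not given here.

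**Figure D4:**
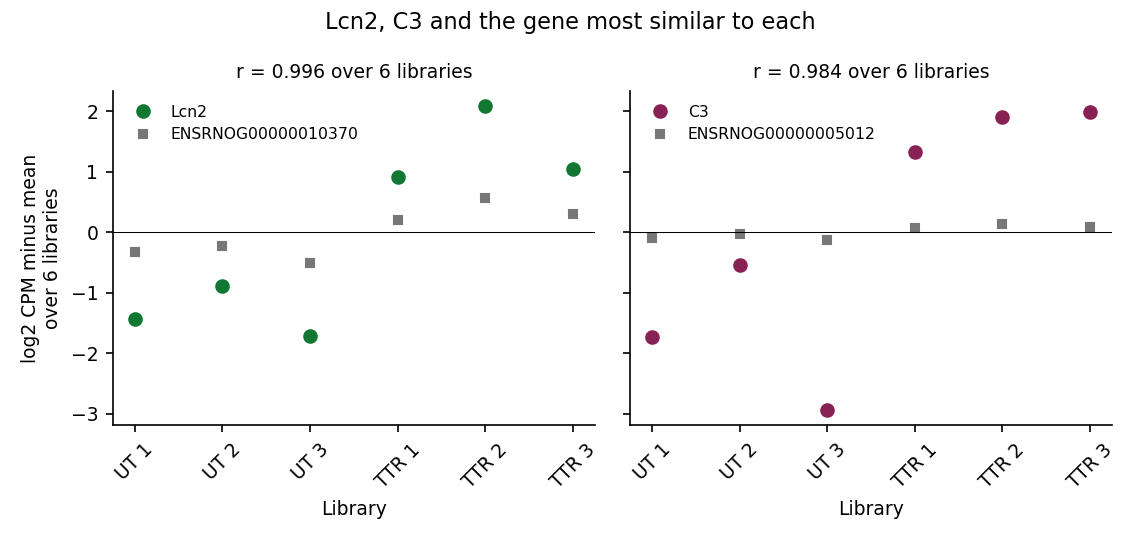
Log2 CPM minus the mean over 6 libraries for Lcn2 (green circles, left) and C3 (purple circles, right), each with the most similar tested gene by Pearson correlation (grey squares), by library on the x axis. The grey squares run in nearly the same order as the circles, with r = 0.996 and 0.984, and over a smaller range, at log2 folds of 0.72 and 0.18 against 2.92 and 3.48.

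The higher levels of Lcn2 and C3 on TTR kept their direction under all 14 other ways of fitting or scaling the counts. That outcome was fixed in advance and is no evidence for the difference. Every TTR library lay at least 3.75-fold (Lcn2) or 4.02-fold (C3) above every UT library, so only the size of the fold could vary. The log2 fold ran from 2.44 to 3.22 for Lcn2 and from 3.00 to 4.55 for C3. For both genes the extremes came from leaving out a library, and scaling by RLE, by upper quartile or by library totals moved the log2 folds by less than the SE.

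**Figure D5:**
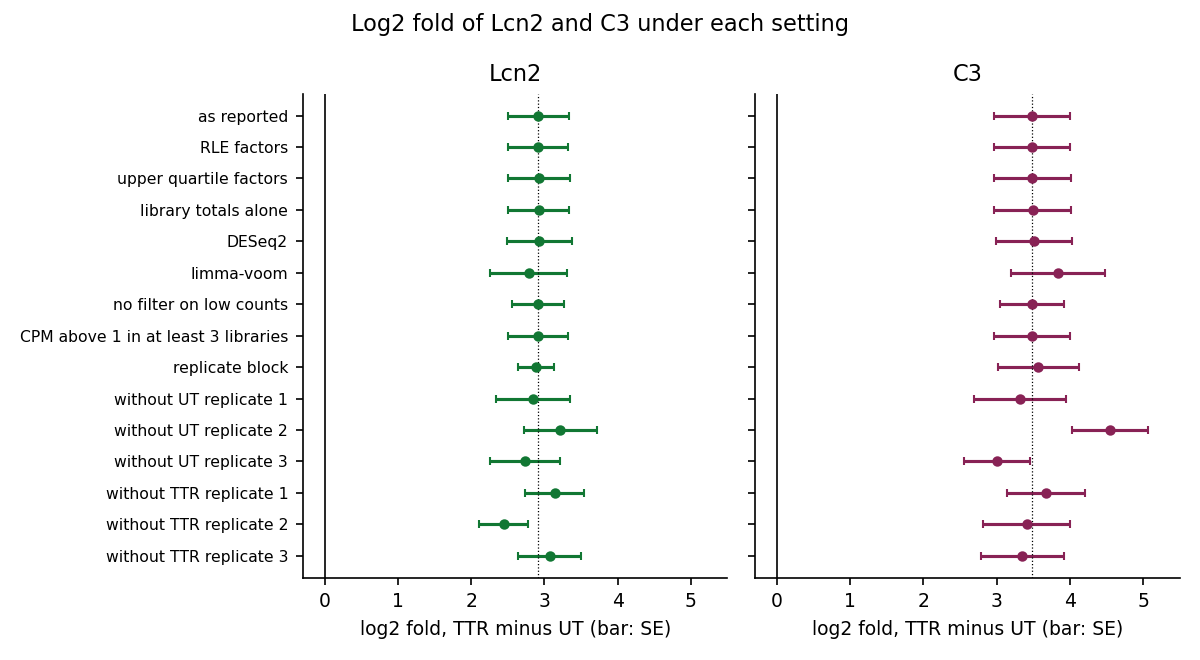
Log2 fold of TTR over UT for Lcn2 (left) and C3 (right) as reported and under 14 other settings, 1 row each, with SE as bars and the reported value as a dotted line. Lcn2 stays between 2.44 and 3.22, and C3 between 3.00 and 4.55, with the highest C3 value without UT replicate 2.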

How the data were processed

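RNA sequencing of 6 libraries gave 1 table of counts per Ensembl rat gene, which the authors deposited as raw whole numbers. STAR, featureCounts, edgeR and build rn6 appear in the submitters' processing notes. Annotation, strand setting and the handling of multi-mapping reads are not given in the sources read. The description label of each sample names its column in the table, and 0 columns were left unmatched.

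Genes were filtered with filterByExpr (minimum count 10), scaled by TMM and fitted with edgeR 4.0.16 (R 4.3.3), quasi-likelihood, two-sided, on group alone. Benjamini-Hochberg adjustment ran over all 12049 tested genes with a threshold of 0.05. SE was taken from the fold and the F statistic. DESeq2 1.42.0, limma-voom (limma 3.58.1), other scalings and filters, the replicate number as a block and leaving out each library were alternatives. Log2 CPM used a prior count of 2. Poisson and binomial intervals are exact, at 95%. The fits were tested on simulated data. The smallest chi-square per degree of freedom between any 2 libraries was 5.51, above sampling noise, where genes averaging under 20 counts were left out. It was that of UT replicate 3 and TTR replicate 1. Next came UT replicate 2 with TTR replicate 2 (5.69) and UT replicate 1 with TTR replicate 3 (7.41). All pairs within a group were higher, the lowest being UT replicates 2 and 3 at 8.775.

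The genes and lists were chosen with earlier results of these data known. The rule for named genes took Lcn2, C3 and, with no symbols, the 1 most correlated gene per member. The reference table (RefSeq, GRCr8) gives a symbol for 0 of the 27108 IDs. The 12 gene lists (174 symbols of acute-phase, complement, NF-kB and cell type genes) were therefore not analysed here. Promoter sequences were matched by symbol in RefSeq (GRCr8) for both genes.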

Additional observations from a re-analysis of the deposited data

How the results depend on the processing

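The log2 fold of Lcn2 lay between 2.44 and 3.22, and that of C3 between 3.00 and 4.55, when 1 library was left out. Without UT replicate 2 the C3 fold was 4.55, a move larger than the spread between replicates. Under the other 13 alternatives C3 moved by less than that spread, and Lcn2 did so under all 14. Over all genes, the count of calls was 1 of 12049 as reported, 37 of 13932 with DESeq2 and 36 of 18627 without a filter on low counts. With CPM above 1 in at least 3 libraries it was 3 of 12491. The count ran from 1 to 9 when 1 library was left out. It was 9 of 12218 without TTR replicate 1 and 2 of 12176 without UT replicate 2. Of Lcn2 and C3, 0 were called as reported, 2 with DESeq2 and 2 without the filter. Leaving out 1 library gave between 0 and 1, the 1 being Lcn2 without TTR replicate 1. The cause was not tested. Under a replicate block, 0 calls were made by edgeR over all genes, and so 0 of the 2 genes were called. Of the 12049 tested genes, 223 had an unadjusted edgeR p under 0.05 in this fit, Lcn2 and C3 among them. The log2 folds under the block were 2.89 for Lcn2 and 3.57 for C3. Deviations from the group means correlated at -0.38, 0.44 and -0.40 for libraries with the numbers 1, 2 and 3. Same-numbered libraries thus did not consistently depart together, and the labels do not say whether the numbers mark pairs. No fit with the pairs of libraries that departed together as a block was run, since those pairs were seen in the same counts. For number 2 alone was the same-numbered library the closest one of the other group. The planned counts for the gene lists were not run, since no row carries a symbol. Depth is low for both genes on UT, with 35 reads of Lcn2 and 19 of C3 over the 3 libraries.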
